A study of Mus musculus with 14 samples.

Results

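The genes described are the pyruvate dehydrogenase kinases *Pdk1* to *Pdk4*, the pyruvate dehydrogenase phosphatases *Pdp1* and *Pdp2*, and *Angptl4*, followed in the colons of adrenalectomized (ADX) mice. They were chosen by name, and every array probe whose RefSeq accession maps to one of them was taken. Of the 7 genes, 5 were represented, by 8 of the 41174 probes on the array, against 19096 genes named in the same way in all. *Pdk4* and *Angptl4* had 1 probe each, *Pdk1*, *Pdk3*, and *Pdp1* had 2 each, and no probe mapped to *Pdk2* or *Pdp2*, which were not analysed here.

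The data were 14 one-color Agilent arrays of colon RNA, 1 per mouse, from male C57BL/6 mice on chow diet. Flox mice carry floxed alleles of *Nr3c1*, the gene of the glucocorticoid receptor (GR), and no Cre, and GR iKO mice are GR fl/fl mice that also carry Villin-cre, which is active in the intestinal epithelium, so that other cells of the colon wall keep the receptor. All mice were ADX, rested for 2 weeks, and received intraperitoneal PBS or 1 mg/kg dexamethasone (DEX), a synthetic glucocorticoid, 6 hours before the colons were taken. By the labels, they were 8 to 10 weeks old and 6 to 8 weeks old at ADX. An older age is stated in the methods. There were 4 Flox mice with PBS, 3 Flox mice with DEX, 3 GR iKO mice with PBS, and 4 GR iKO mice with DEX, taken from the sample names, since the treatment text of the labels describes DEX for every sample. The comparisons ask how DEX changed these genes in each genotype and whether the responses differed without epithelial GR.

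The pyruvate dehydrogenase complex (PDC) turns pyruvate into acetyl-CoA in mitochondria and so decides whether carbon from glucose enters the citric acid cycle. PDKs phosphorylate and switch off the complex, and PDPs remove the phosphate and switch it on again. *Pdk4* is known to be induced by fasting, fatty acids, and glucocorticoids in muscle, heart, and liver, when tissues shift from glucose to fat. ANGPTL4 is a secreted inhibitor of lipoprotein lipase, the enzyme that releases fatty acids from circulating triglyceride, and its gene is a target of the fatty acid receptors of the PPAR family and of GR.

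Promoter sequence was examined because *Pdk4* and the other kinases with probes differed in their values with DEX. The windows run from 250 bases before to 50 bases after the RefSeq start of the gene (GRCm38.p6), and promoters of *Pdk4*, *Pdk1*, and *Pdk3* were in the table used. They are printed 5′ to 3′ on the strand of the gene, and capitals mark a match, on either strand, to any motif searched. The windows lie at chr6:5496229-5496528 on the minus strand for *Pdk4*, at chr2:71872974-71873273 on the plus strand for *Pdk1* (the first of its 2 starts), and at chrX:93832101-93832400 on the minus strand for *Pdk3*.
Pdk4: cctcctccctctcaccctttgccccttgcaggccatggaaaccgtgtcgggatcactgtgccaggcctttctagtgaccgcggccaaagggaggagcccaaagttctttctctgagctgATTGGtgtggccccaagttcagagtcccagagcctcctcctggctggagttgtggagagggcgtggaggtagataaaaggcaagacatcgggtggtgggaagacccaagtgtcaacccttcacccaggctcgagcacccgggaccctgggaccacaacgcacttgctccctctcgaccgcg
Pdk1: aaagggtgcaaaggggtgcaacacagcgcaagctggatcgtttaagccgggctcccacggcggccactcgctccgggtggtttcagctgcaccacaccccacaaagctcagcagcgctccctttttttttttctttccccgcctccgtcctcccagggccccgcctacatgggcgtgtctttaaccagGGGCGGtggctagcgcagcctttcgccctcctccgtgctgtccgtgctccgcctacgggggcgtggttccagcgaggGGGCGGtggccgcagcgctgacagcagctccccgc
Pdk3: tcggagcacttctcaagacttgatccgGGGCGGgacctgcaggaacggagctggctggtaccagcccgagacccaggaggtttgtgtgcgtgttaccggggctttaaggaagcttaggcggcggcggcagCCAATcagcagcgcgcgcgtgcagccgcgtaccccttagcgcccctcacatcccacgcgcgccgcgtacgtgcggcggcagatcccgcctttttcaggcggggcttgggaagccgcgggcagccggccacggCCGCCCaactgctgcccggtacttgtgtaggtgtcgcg

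The motifs searched, on both strands, were the glucocorticoid response element as a full palindrome (AGAACA, any 3 bases, and its reverse complement) and its single arm AGAACA, the PPAR response element as a full direct repeat (AGGTCA, any 1 base, AGGTCA) and its single arm AGGTCA, the CCAAT box (CCAAT), and the GC box (GGGCGG). Each full element contains its arm. Positions give the base of the match farthest upstream, counted from the start. The *Pdk4* window held 1 match, a CCAAT box on the opposite strand at −131, and none of the other letters searched. The first *Pdk1* window held GC boxes at −62 and 16. The *Pdk3* window held a CCAAT box at −120 and GC boxes at −223 and 13. The window of the second *Pdk1* start was the only one of the 4 with the arm AGAACA, at −153 and −138, both on the opposite strand. Of all 32807 mouse promoter windows of this length, 37.4% held a CCAAT box, 35.6% a GC box, 19% the arm AGAACA, 16.3% the arm AGGTCA, 0.00914% the full glucocorticoid element, and 0.0396% the full PPAR element. A match is a string of letters and not a site of binding, and these windows leave out every more distant element.

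Values are relative log2 signals, that is, log2 intensities from which the 75th percentile of the same array was subtracted. All 8 probes were well above background on all 14 arrays, and none was saturated. All groups were fitted in 1 model (limma), and a call required both an adjusted p (Benjamini-Hochberg, over all probes) under 0.05 and a change of 2-fold or more. Across the arrays, 28302 to 30518 probes were well above background and the 75th percentile was 566 to 774 intensity units. The signal of *Nr3c1* was 1.13 to 1.48 on the 7 Flox arrays and −0.14 to 0.79 on the 7 GR iKO arrays, lower in GR iKO mice by −0.90 (SE 0.12, limma adjusted p = 0.0162) under PBS and −1.24 (SE 0.12, limma adjusted p = 0.0032) under DEX. Whether this probe lies in the deleted part of the gene was not examined. Other probes of *Nr3c1* gave −1.14 and −0.86 under PBS (limma adjusted p = 0.0183 and 0.0284) and −1.27 and −1.10 under DEX (limma adjusted p = 0.00866 and 0.00662). A further probe gave −1.07 under PBS and −0.35 under DEX, and passed in neither (limma adjusted p = 0.636 and 0.777). No slide or scan held arrays of more than 1 group, and therefore slide, scan, and group cannot be told apart in any comparison, and the number of arrays limits the precision of all values.

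The samples were whole colon, in which a change in the number of cells of a type and a change in RNA per cell cannot be told apart. Defining epithelial markers were well above background on all arrays (8 of 8), with summed relative signals of 975 to 1157. Exocrine pancreas markers (5 of 8 above background on all arrays, *Cpa1*, *Cela2a*, and *Pnlip* on some) summed to 0.673 to 541 in Flox mice with PBS, 1.38 to 1813 in Flox mice with DEX, 0.966 to 1.01 in GR iKO mice with PBS, and 1.16 to 182 in GR iKO mice with DEX. The sums above 10 came from Flox PBS mouse 2, Flox DEX mice 1 and 2, and GR iKO DEX mice 2 and 4.

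DEX raised *Pdk4* 10.2-fold in the Flox group and 11.2-fold in the GR iKO group, and the responses did not differ beyond their error. The 4 Flox mice with PBS had *Pdk4* signals of −2.17, −2.23, −2.60, and −2.41, and the 3 Flox mice with DEX had 1.5, 0.52, and 0.97. Every DEX mouse therefore lay above every PBS mouse. The means were −2.35 ± 0.20 (SD, n = 4) and 0.99 ± 0.49 (SD, n = 3), a log2 change of 3.35 (SE 0.34, 95% interval 2.61 to 4.09, limma adjusted p = 0.000975), with an interval of the fold change from 6.09 to 17.0. It was the 47th highest change of 41173 probes tested.

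In GR iKO mice, *Pdk4* was −1.56, −2.75, and −2.14 in the 3 mice with PBS and 0.84, 2.06, 0.94, and 1.52 in the 4 mice with DEX. These groups did not overlap either, and the lowest DEX mouse stood more than 2 log2 units above the highest PBS mouse. The means were −2.15 ± 0.59 (SD, n = 3) and 1.34 ± 0.56 (SD, n = 4), a log2 change of 3.49 (SE 0.34, 95% interval 2.75 to 4.23, limma adjusted p = 0.000641), with an interval of the fold change from 6.71 to 18.7, the 33rd highest change. The GR iKO response minus the Flox response was 0.14 (SE 0.48, 95% interval −0.91 to 1.19, limma adjusted p = 0.956). As a ratio, the response of GR iKO mice was 1.10 times that of Flox mice, with an interval from 0.534 to 2.27, so a response reduced to less than 0.534 of the Flox response lies outside the interval. The level of *Pdk4* in GR iKO mice differed from that in Flox mice by 0.20 (SE 0.34, limma adjusted p = 0.908) under PBS and by 0.34 (SE 0.34, limma adjusted p = 0.688) under DEX.

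The call for *Pdk4* was kept in both genotypes in each of the 14 fits that left out 1 array. It was lost in Flox mice with the methods' t-test (adjusted p = 0.0511) and when 5 arrays with a high signal of exocrine pancreas genes were left out together (3.36, limma adjusted p = 0.0677), which leaves 1 Flox mouse with DEX that is assumed to vary like the others. It was kept in GR iKO mice under all 17 other settings, with changes from 3.03 to 3.64. In Flox mice, these settings gave 2.64 to 3.5, the lowest with normexp background correction (limma adjusted p = 0.00409). In the authors' own log2 table, the changes were 3.30 in Flox mice (limma adjusted p = 0.000924) and 3.44 in GR iKO mice (limma adjusted p = 0.000683), with a difference of 0.14.

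**Figure D1:**
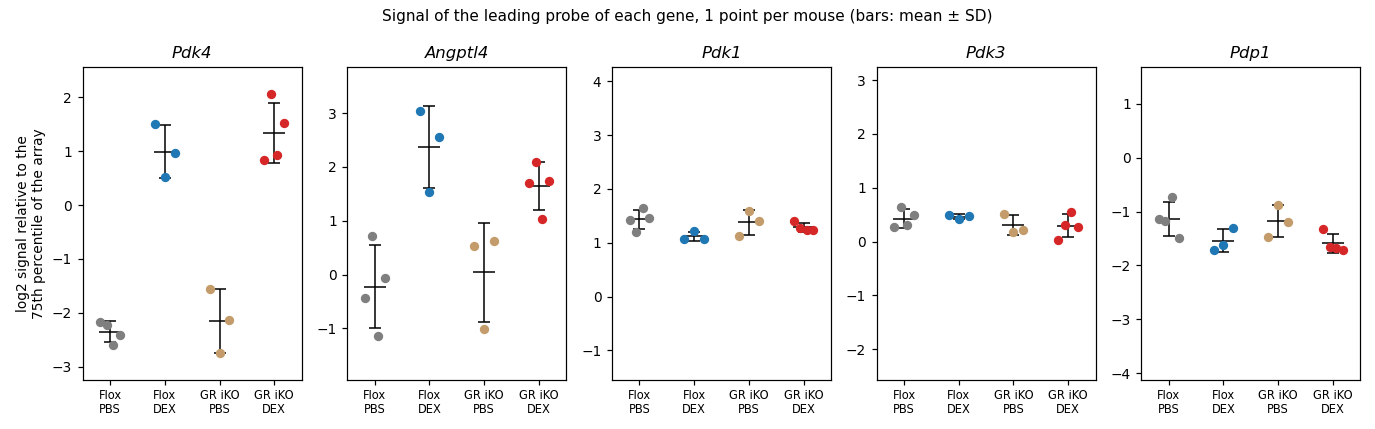
Relative log2 signal, with the 75th percentile of each array at 0 (y axis, the same span of 5.8 log2 units in each panel) for the leading probe of each gene, by group (x axis), with 1 point per mouse and bars for the mean ± SD (4, 3, 3, and 4 mice). The DEX points of *Pdk4* and *Angptl4* lie above all PBS points of the same genotype, whereas the groups of *Pdk1*, *Pdk3*, and *Pdp1* overlap within each genotype.

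DEX raised *Angptl4* 6.04-fold in Flox mice, whereas the 3.02-fold higher mean in GR iKO mice did not pass the test, and the difference between these responses did not pass it either. Its signals were −0.43, 0.73, −1.14, and −0.06 in the 4 Flox mice with PBS and 3.03, 1.53, and 2.55 in the 3 Flox mice with DEX. The groups did not overlap, but mice within each differed by more than 1 log2 unit. The means were −0.23 ± 0.77 (SD, n = 4) and 2.37 ± 0.77 (SD, n = 3), a log2 change of 2.59 (SE 0.51, 95% interval 1.48 to 3.71, limma adjusted p = 0.0212), with an interval of the fold change from 2.79 to 13.1.

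In GR iKO mice, *Angptl4* was 0.53, −1.01, and 0.62 in the 3 mice with PBS and 1.70, 2.08, 1.03, and 1.75 in the 4 mice with DEX. All DEX mice were again above all PBS mice, although 1 PBS mouse stood well below the other two. The means were 0.05 ± 0.92 (SD, n = 3) and 1.64 ± 0.44 (SD, n = 4), a log2 change of 1.59 (SE 0.51, 95% interval 0.48 to 2.71, limma adjusted p = 0.0641), with an interval of the fold change from 1.39 to 6.55. The difference between the responses was −1.0 (SE 0.72, 95% interval −2.58 to 0.58, limma adjusted p = 0.651), which as a ratio is 0.50 with an interval from 0.167 to 1.49. The interval thus holds both an equal response and one far smaller in GR iKO mice. *Angptl4* in GR iKO mice differed from Flox mice by 0.27 (SE 0.51, limma adjusted p = 0.925) under PBS and by −0.73 (SE 0.51, limma adjusted p = 0.577) under DEX.

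The calls for *Angptl4* were near the threshold. In Flox mice, the call was lost without PBS mouse 3 (2.29, limma adjusted p = 0.0575), without DEX mouse 1 (2.26, limma adjusted p = 0.0947), and without DEX mouse 4 (2.50, limma adjusted p = 0.0606), and with normexp background correction (2.24, limma adjusted p = 0.069). It was also lost with only the groups compared in the fit (limma adjusted p = 0.0601), with the methods' t-test (adjusted p = 0.125), and without the 5 pancreas arrays (3.09, limma adjusted p = 0.217). The change of 1.59 in GR iKO mice was called once probes without any group well above background on all its arrays were left out (limma adjusted p = 0.0437) and with the replicate number as a block (1.50, limma adjusted p = 0.0497), and without PBS mouse 3 the change was 1.07 (limma adjusted p = 0.237). The *Angptl4* probe lies in row 524 of 532 on the array. In rows 355 to 532, 6.01% of probes well above background on all arrays were called with DEX in GR iKO mice, against 1.68% and 1.63% in the other parts of the array, and the part of array position in the result was not tested.

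The remaining kinases and the phosphatase were not called in any comparison. *Pdk1*, a kinase best known as a target of hypoxia signaling, was 1.20 to 1.64 (median 1.45) in Flox mice with PBS and 1.07, 1.22, and 1.08 in Flox mice with DEX. Its DEX mice overlapped with the PBS mice by 1 value. The change was −0.31 (SE 0.12, 95% interval −0.58 to −0.04, limma adjusted p = 0.199) in Flox mice and −0.09 (SE 0.12, limma adjusted p = 0.672) in GR iKO mice. The second *Pdk1* probe gave −0.26 and −0.15. With DEX, the leading probe was 1.23 to 1.40 in GR iKO mice, a difference from Flox mice of 0.16 (SE 0.12, limma adjusted p = 0.609). Under PBS the difference was −0.06 (SE 0.12, limma adjusted p = 0.938). For the second probe it was 0.14 under DEX and 0.03 under PBS. *Pdk3*, the kinase least sensitive to inhibition by pyruvate, had a change of 0.04 (SE 0.14, 95% interval −0.26 to 0.34, limma adjusted p = 0.908) in Flox mice and −0.02 (SE 0.14, 95% interval −0.31 to 0.28, limma adjusted p = 0.948) in GR iKO mice. Its intervals leave out any change of 1.5-fold in either direction, and its second probe gave −0.06 and −0.03.

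*Pdp1*, the phosphatase that reactivates the complex, was −1.49 to −0.73 (median −1.15) in Flox mice with PBS and −1.71, −1.62, and −1.30 in Flox mice with DEX. In GR iKO mice it was −1.47, −0.88, and −1.19 with PBS and −1.33, −1.65, −1.67, and −1.72 with DEX. The means were lower with DEX in both genotypes, but the groups overlapped. The change was −0.41 in Flox mice (SE 0.19, 95% interval −0.83 to 0.0027, limma adjusted p = 0.267) and −0.41 in GR iKO mice (SE 0.19, 95% interval −0.83 to 0.0035, limma adjusted p = 0.185). A second probe, which maps to another *Pdp1* transcript, gave −0.56 and −0.34. Over the 14 arrays, both probes of a gene followed each other with r = 0.684 for *Pdk1*, 0.836 for *Pdk3*, and 0.952 for *Pdp1*, which is a description over arrays that share slides.

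Counted over all 8 probes, 2 were called with DEX in Flox mice, where 1.57% of all probes were called (0.782% as higher), and 4 had an unadjusted p under 0.05, beside 19.0% of all probes. With DEX in GR iKO mice, 1 of 8 was called, where 5.01% of all probes were called (4.19% as higher), and 2 had an unadjusted p under 0.05, beside 27.7% of all probes. In limma, 0 of 8 were called for the difference between the responses (background 0.221%), for GR iKO against Flox mice under PBS (background 0.134%), and for GR iKO against Flox mice under DEX (background 0.16%), and 0 of 8 had an unadjusted p under 0.05 in each of these. The methods' t-test gave 0 and 1 (*Pdk1*) of the 5 leading probes at an unadjusted p under 0.05 for the last comparisons, under PBS and DEX. Complete separation of the groups with DEX higher, as seen for *Pdk4* and *Angptl4* in both genotypes, was found in 12% of all probes in the Flox comparison and in 17.2% in the GR iKO comparison.

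**Figure D2:**
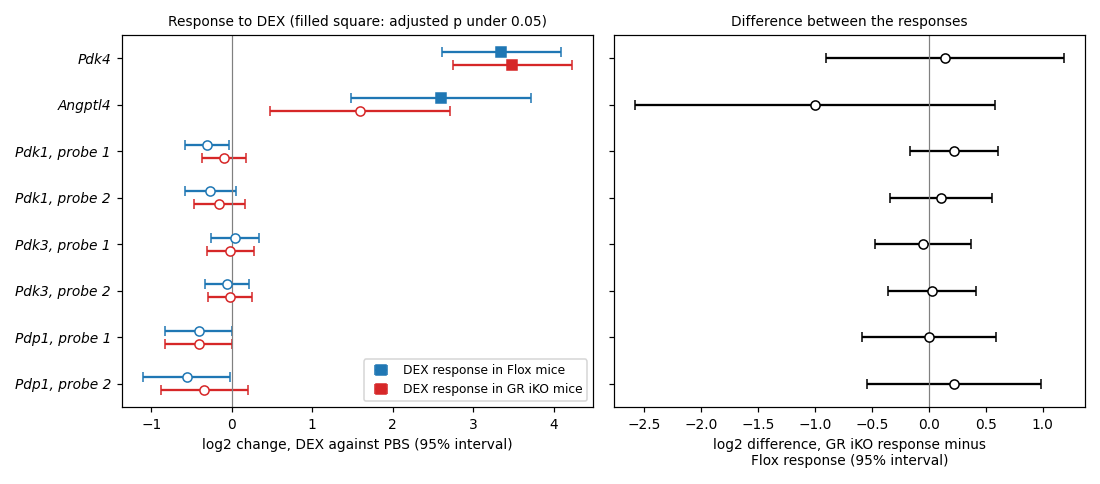
Left, log2 change with DEX against PBS (x axis) for each of the 8 probes in Flox mice (blue) and GR iKO mice (red), with 95% intervals from the model of all groups, where a filled square marks a limma adjusted p under 0.05. Right, the GR iKO response minus the Flox response with its 95% interval, which includes 0 for each of the 8 probes.

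Mice that were high or low for *Pdk4* within their group were often so for *Angptl4*. Flox DEX mouse 1 had the highest value of its group for both genes (1.5 and 3.03) and Flox DEX mouse 2 the lowest (0.52 and 1.53). GR iKO DEX mouse 2 was likewise highest of its group in both (2.06 and 2.08), and mouse 3 with PBS was lowest of its group in both genes and both genotypes. The highest mouse with PBS was not the same for both genes in either genotype. In GR iKO mice with DEX, the lowest was mouse 1 for *Pdk4* and mouse 3 for *Angptl4*. After the mean of each group was subtracted, the deviations of the 14 arrays correlated with Pearson r = 0.725 and Spearman rho = 0.692, as a description over arrays that share slides within a group.

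**Figure D3:**
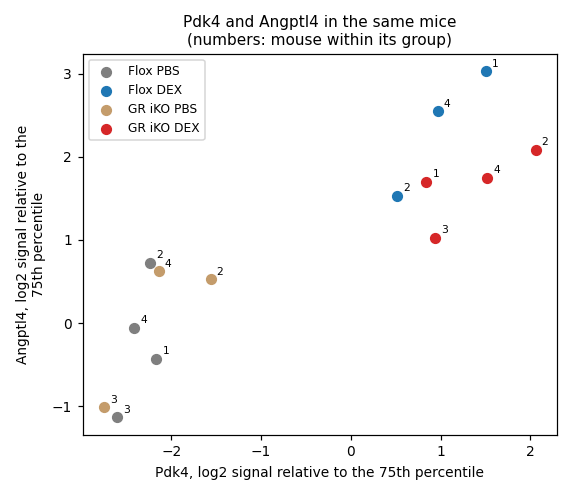
*Angptl4* (y axis) against *Pdk4* (x axis), both as relative log2 signals, with 1 point per mouse, colors for the 4 groups, and the number of the mouse within its group beside each point. The 7 PBS mice lie below −1.5 for *Pdk4* and below 0.8 for *Angptl4*, and the 7 DEX mice lie above 0.5 and 1, respectively.

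The genes with the pattern most like each of them were sought among the leading probes of 14275 genes, by Pearson r over the 14 arrays. Since the arrays fall into PBS and DEX mice, this measure ranks mainly genes that differ between those, and no test was made. For *Pdk4*, they were *Ism1* (0.977), which encodes a secreted protein, *Scube2* (0.970), *Rusc2* (0.967), *Ptgs1* (0.967), the constitutive cyclooxygenase, and *Arl4d* (0.966), a small GTPase. The changes with DEX were 2.56 in Flox and 2.49 in GR iKO mice for *Ism1*, and 1.21 and 1.17 for *Ptgs1*. For *Angptl4*, they were *Ttc7b* (0.918), *Rbl2* (0.909), a relative of the retinoblastoma protein, *Mphosph9* (0.906), *Adamts3* (0.902), a procollagen protease, and *Elmo1* (0.900), a regulator of Rac. *Adamts3* changed by 1.69 in Flox and 1.36 in GR iKO mice. In these orders, *Angptl4* stood at position 135 for *Pdk4*, and *Pdk4* at position 14 for *Angptl4*.

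Other genes of pyruvate and lipid handling were read from 8 lists, with 84 of 86 genes on the array. With DEX, 3 of the 84 passed as called in Flox and 4 in GR iKO mice, beside the backgrounds of 1.57% and 5.01%, and none was called for the difference between the responses in limma. These counts, and those of the lists, are of leading probes. An unadjusted p under 0.05 was found for 22 of the 84 genes in each genotype and for 9 in the difference, beside 19.0%, 27.7%, and 12.1% of all probes. The median change over the leading probes of all genes was 0.04 in both genotypes. None of the 8 genes of PDC subunits and pyruvate carriers was called in Flox or GR iKO mice in limma (1 and 3 with an unadjusted p under 0.05), and their medians were 0.04 and −0.15. *Dlat*, the acetyltransferase subunit, had 0.49 in Flox mice (limma adjusted p = 0.064) and 0.11 in GR iKO mice (limma adjusted p = 0.631). Its second probe gave 0.25 and −0.10 (limma adjusted p = 0.332 and 0.644). A second probe of *Dld*, from the same list, gave −0.44 and −0.61, both under 2-fold (limma adjusted p = 0.197 and 0.0443). *Pdha1*, the subunit that PDKs phosphorylate, had 0.10 and −0.05. The related branched-chain ketoacid complex with its own kinase *Bckdk* and phosphatase *Ppm1k* had 0 of 5 genes called in either genotype (0 with an unadjusted p under 0.05 in limma), with changes between −0.20 and 0.21.

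Among 9 genes of glycolysis, lactate, and pyruvate, 0 were called in either genotype in limma (5 in Flox and 3 in GR iKO mice with an unadjusted p under 0.05), and the medians were −0.25 and 0.12. The lactate transporter *Slc16a3* had −0.90 in Flox mice (limma adjusted p = 0.051) and 0.63 in GR iKO mice (limma adjusted p = 0.086), and the difference of 1.53 did not pass the test (limma adjusted p = 0.074). *Slc16a1*, which carries lactate and butyrate, had −0.35 and 0.53, the latter under 2-fold (limma adjusted p = 0.0197), with a difference of 0.88 (limma adjusted p = 0.072). Among the other probes of these genes, 1 of *Hk1*, in row 515 and well above background on 1 array, was called in GR iKO mice with DEX (1.58, limma adjusted p = 0.0105). Another, of *Slc16a1*, was called for GR iKO against Flox mice under DEX (1.02, limma adjusted p = 0.0493).

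Of 17 genes of fatty acid oxidation, 1 was called, in GR iKO mice, and the medians were 0.07 and 0.01. *Cpt1b*, the muscle form of the enzyme that admits fatty acids to mitochondria, rose by 1.16 in GR iKO mice (SE 0.26, limma adjusted p = 0.0165), where it was −2.80 to −1.72 with PBS and −1.41 to −0.56 with DEX. In Flox mice its change was 0.96 (limma adjusted p = 0.0671), and its second probe gave 0.46 and 0.38, called in neither. Of 15 other PPAR targets, 1 was called, and the medians were 0.28 and 0.24. *Plin2*, which coats lipid droplets, fell by 1.10 in Flox mice (SE 0.25, limma adjusted p = 0.0377), where it was 4.72 to 5.30 with PBS and 3.69 to 4.14 with DEX. *Plin2* had −0.36 in GR iKO mice (limma adjusted p = 0.389).

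In the lipoprotein lipase axis, 1 of 11 genes was called, and the medians were 0.08 and 0.12. *Gpihbp1*, which carries the lipase to the capillary wall, rose by 1.34 in GR iKO mice (SE 0.13, limma adjusted p = 0.000641), where it was −1.03 to −0.74 with PBS and 0.34 to 0.71 with DEX. In Flox mice its change of 0.73 (SE 0.13, limma adjusted p = 0.0159) was under 2-fold, and the difference of 0.61 did not pass the test (limma adjusted p = 0.2). *Lpl* itself had 0.52 and −0.36 (limma adjusted p = 0.599 and 0.644). Of the 4 other angiopoietin-like genes, 1 was called (medians 0.35 and −0.07). A second probe of *Angptl2* was called lower in Flox mice (−1.07, limma adjusted p = 0.0458), whereas its leading probe had −0.62 (limma adjusted p = 0.196). *Angptl7*, a secreted relative of ANGPTL4, rose in Flox mice by 3.08 (SE 0.51, limma adjusted p = 0.0105) and in GR iKO mice by 3.31 (SE 0.51, limma adjusted p = 0.00357), with a difference of 0.23 (limma adjusted p = 0.95). Its signals were −2.07 to −1.23 with PBS and 1.25 to 1.64 with DEX in Flox mice, and −3.92 to −1.42 and 0.17 to 1.57 in GR iKO mice, without overlap in either. The lowest value came from GR iKO PBS mouse 2 alone, with the other mice of that group at −1.42 and −1.71. It raises the change in GR iKO mice. The probes of *Gpihbp1* and *Angptl7* lie in rows 448 and 484 of the array. These rows belong to the part with the highest share of calls in GR iKO mice, and the part of array position was not tested.

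Among 15 receptors and regulators, 1 was called in each genotype, and the medians were −0.08 and 0.12. *Klf15*, a glucocorticoid-induced transcription factor of fuel use, rose in Flox mice by 1.88 (SE 0.22, limma adjusted p = 0.00239) and in GR iKO mice by 1.97 (SE 0.22, limma adjusted p = 0.000881). Its signals were −2.05 to −1.62 with PBS and −0.23 to 0.41 with DEX in Flox mice, and −2.49 to −2.01 and −0.75 to 0.14 in GR iKO mice, without overlap in either. Its second probe gave 0.54 and 0.65, under 2-fold in both. *Ppard* had −0.63 in Flox mice (SE 0.11, limma adjusted p = 0.0148) and 0.36 in GR iKO mice (limma adjusted p = 0.0582), both under 2-fold, and the difference of 0.997 (SE 0.16, limma adjusted p = 0.0315) fell just short of 2-fold. *Ppara* had 0.81 and 0.12, and *Pparg* −0.16 and −0.22, none of which passed the test.

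**Figure D4:**
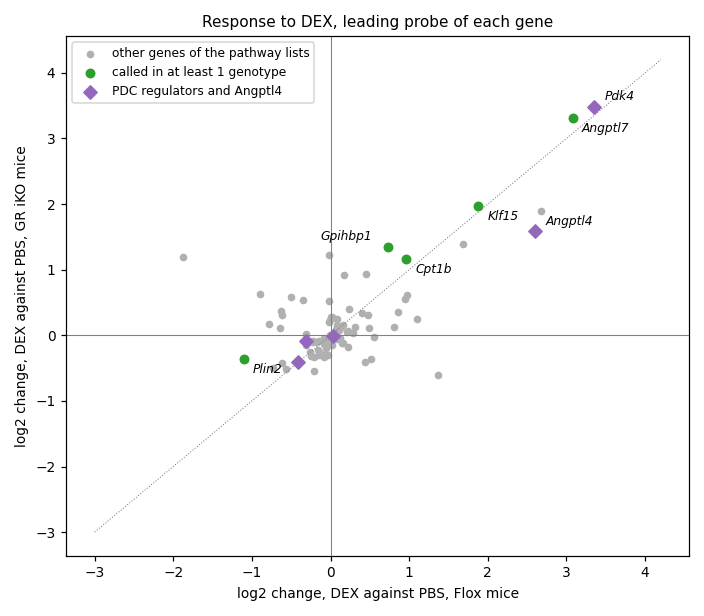
Log2 change with DEX in GR iKO mice (y axis) against that in Flox mice (x axis) for the leading probe of the 84 genes of the lists (circles, green where called in at least 1 genotype) and of the 4 PDC regulators and *Angptl4* (diamonds), with a dotted line where both changes are equal. *Pdk4*, *Angptl7*, and *Klf15* lie near the line at 3.35 and 3.49, 3.08 and 3.31, and 1.88 and 1.97, and *Plin2* is the called gene on the negative side.

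Of 75 markers in 12 lists of cell types, the leading probes of 2 were called lower in the Flox group given DEX, and those of 5 in the GR iKO group (limma). These were 1 of 6 macrophage markers in each genotype, 1 and 2 of 6 endothelial markers, and 2 of 6 T cell markers in GR iKO mice. Among all probes tested, 324 of 41173 were called lower in Flox mice and 339 of 41174 in GR iKO mice. In the endothelial and T cell lists, the highest changes were 0.35 and 0.92 in Flox mice and 0.25 and 0.86 in GR iKO mice. The endothelial sum overlapped, at 3.46 to 4.15 with PBS and 3.36 to 4.03 with DEX in Flox mice. For GR iKO mice it was 3.31 to 4.14 and 2.89 to 3.87. The summed signal of 6 macrophage markers was 7.48 to 12.3 with PBS and 5.81 to 7.01 with DEX in Flox mice, and 8.77 to 11.5 and 5.99 to 7.91 in GR iKO mice. Smooth muscle markers (6 of 6 detected) summed to 347 to 414 with PBS and 503 to 643 with DEX in Flox mice, without overlap, and to 411 to 491 and 375 to 596 in GR iKO mice. Skeletal muscle markers (4 of 6 above background on all arrays, *Myh4* and *Myh1* on some) summed to 1.99 to 2.60 with PBS and 2.95 to 3.81 with DEX in Flox mice, and to 2.66 to 3.32 and 2.69 to 3.75 in GR iKO mice. Both muscle lists thus separated the treatments in Flox mice and overlapped in GR iKO mice. The smooth muscle overlap in GR iKO mice came from DEX mouse 1 alone (375, the others 575 to 596). The macrophage sums separated the treatments in both genotypes, lower with DEX. Stromal fibroblast markers (6 of 6 detected) summed to 65.1 to 105 with PBS and 56.8 to 71.3 with DEX in Flox mice, and to 83.9 to 96.1 and 69.97 to 83.8 in GR iKO mice. T cell markers (5 of 6 above background on all arrays, *Cd8a* on some) summed to 0.411 to 0.638 and 0.401 to 0.519 in Flox mice, and to 0.689 to 1.00 and 0.563 to 0.638 in GR iKO mice. The fibroblast and T cell sums separated the treatments in GR iKO mice only. B or plasma cell markers summed to 40.6 to 88.7 with PBS and 39.5 to 47.0 with DEX in Flox mice. In GR iKO mice they summed to 41.7 to 86.7 and 66.1 to 99.997, with overlap in both genotypes. Colonocyte markers (4 of 4 detected) overlapped in both genotypes, at 328 to 408 with PBS and 252 to 338 with DEX in Flox mice, and at 352 to 457 and 124 to 456 in GR iKO mice. Goblet cell markers (6 of 6 detected) overlapped as well, at 1039 to 1252 and 1191 to 1466, and at 942 to 1067 and 794 to 1536. Probes of *Muc2* other than the leading one rose past the threshold in the GR iKO group (1.47 and 1.32, limma adjusted p = 0.0207 and 0.0368). Another probe of *Fcgbp* did so too (1.14, limma adjusted p = 0.0379). In Flox mice these probes gave 1.14, 0.95, and −0.17, and none was called (limma adjusted p = 0.102, 0.178, and 0.801). In GR iKO DEX mice 1 to 4, the colonocyte sums were 136, 456, 124, and 393, and mice 2 and 4 were thus the higher ones for both this sum and *Pdk4*. Mice 2 and 4 also had the high exocrine pancreas sums of this group (182 and 92.6, against 1.16 and 1.42 in mice 1 and 3). After the group means were subtracted, *Pdk4* correlated over the 14 arrays with Pearson r = 0.613 with the colonocyte list and −0.548 with the goblet cell list, as a description. These were its highest and lowest values among the 12 lists, and the macrophage list gave −0.474. Other genes reached values of like size with other lists. *Pdk3* had 0.683 with skeletal muscle and 0.679 with smooth muscle, and *Angptl4* had 0.569 and *Pdp1* −0.567 with T cells. Adipocyte markers, of which 6 of 7 were above background on all arrays and *Lep* on some, overlapped between PBS (18.3 to 141) and DEX (36.4 to 91.1) in Flox mice and between PBS (50.05 to 61.1) and DEX (32.1 to 73.6) in GR iKO mice. In Flox DEX mouse 4, which had the low pancreas sum of 1.38, *Pdk4* was 0.97, between the 0.52 and 1.5 of the other DEX mice, and *Angptl4* was 2.55, between 1.53 and 3.03. In the GR iKO DEX group, mice 2 and 4, with the high pancreas sums, had the highest values of both genes. *Pdk4* was 2.06 and 1.52 in these, against 0.84 and 0.94 in mice 1 and 3. *Angptl4* was 2.08 and 1.75, against 1.70 and 1.03. Flox PBS mouse 2, with a pancreas sum of 541, had the highest *Angptl4* of its group (0.73) but not the highest *Pdk4* (−2.23). The part of the cell type lists, including exocrine pancreas, in the changes of *Pdk4* and *Angptl4* was not tested.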

How the data were processed

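Colon RNA of 14 mice was measured on Agilent mouse arrays, 1 array per mouse. The authors deposited the processed intensity of each spot from Feature Extraction 12.0.0.7, background-subtracted and not normalized between arrays, and a table of log2 values, whose normalization is not given in the sources used here. The 14 columns of that table held the same sorted values within 0.0024. The labels also name Partek 6.6.

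Control spots and outlier spots were left out, spots of a probe were averaged (245 probes had several), and values were taken as log2 minus the array's 75th percentile, for 41174 probes. Probes were named through RefSeq accessions (28223 named). Fits used limma 3.58.1 (lmFit, eBayes) under R 4.3.3, with 4 groups and contrasts for the DEX response in each genotype, the difference of the responses, and the genotypes under each treatment. The procedure was tested on simulated data. The leading probe of a gene is the one with the highest mean signal. The members, lists, and tests were chosen with earlier results of these data known. Genes named are all members, genes of the pathway lists called in a DEX contrast or the difference, *Nr3c1* and the 3 PPAR genes, and the 5 genes most like *Pdk4* and *Angptl4*. The few other list genes named were chosen after their values were seen. Marker sums add the linear relative signals of a list. Promoters are from RefSeq (GRCm38.p6). Alternatives concerned background, scaling, filters, probes, thresholds, test, array rows, and left-out arrays, and normexp was run on median spot intensities.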

Additional observations from a re-analysis of the deposited data

Results flagged for a closer look

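Single arrays were examined in groups of 4 for the 8 probes of the PDC regulators and *Angptl4* and for 9 other named genes. Of 34 groups, 2 held an array far from the others, where chance gives about 1.7. For *Pdp1*, GR iKO DEX mouse 1 stood at −1.33 against −1.72 to −1.65 in the other mice, a gap of 0.83 of the range. For *Ppard*, Flox PBS mouse 2 stood at −3.45 against −3.24 to −3.20, a gap of 0.855 of the range.

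The responses of *Ppard* to DEX differed between the genotypes by 0.997 (SE 0.16, limma adjusted p = 0.0315). Its signals were −3.45 to −3.20 with PBS and −4.03 to −3.79 with DEX in Flox mice, and −3.86 to −3.47 and −3.48 to −3.25 in GR iKO mice. The PBS groups of the genotypes thus enter this difference as well as the DEX groups. Its probe lies in row 524 of the array, in the part of the rows that held the highest share of calls in GR iKO mice, and the part of array position was not tested.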

How the results depend on the processing

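Of 750 changes recomputed under other settings, 691 kept their direction and their side of the threshold, and of 153 recomputed counts of called genes, 142 stayed within 1.5 times the main count. *Pdk4* was called in Flox mice under 15 of 17 settings other than leaving out 1 array (lost: the methods' t-test, 3.35, adjusted p = 0.0511, and 5 arrays with high pancreas signal left out, a setting chosen after seeing the data, 3.36) and in GR iKO mice under 17 of 17. *Angptl4* was called in Flox mice under 11 of 16, and lost with normexp (2.24), with only the compared groups, the methods' t-test, or an adjusted p under 0.01 (2.59 in each), and without the pancreas arrays (3.09). It was gained in GR iKO mice with a filter on dim probes (1.59) and with the replicate block (1.50, limma adjusted p = 0.0497). The genes called with DEX in Flox mice fell from 2 to 1 with normexp, only the compared groups, or an adjusted p under 0.01, and to 0 with the t-test. With rows 355 to 532 left out the count was also 1, but this setting removes the *Angptl4* probe itself, so that fall was fixed beforehand. In GR iKO mice the called genes went from 1 to 2 with the filter and the block. Leaving out 1 array gave 1 to 2 called genes in Flox mice, and changes of 2.26 to 3.02 for *Angptl4* and 3.09 to 3.59 for *Pdk4* in Flox mice.

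The replicate numbers were not taken to pair the mice: deviations of same-numbered arrays correlated with −0.03 to 0.17 over probes, and 6 of 14 arrays correlated best with their own number. The replicate block moved the calls over all probes from 646 to 398 in Flox mice and from 2063 to 1710 in GR iKO mice. Over all settings these counts ran from 0 (methods' t-test, 7843 at an unadjusted p under 0.05) to 1304 in Flox mice and from 45 (normexp) to 4808 (no minimum fold) in GR iKO mice. The count of 0 is not a result of the authors' own array test, which was not read here. Normexp moved the median change of all probes with DEX from 0.06 to 0.56 in Flox mice and from 0.09 to 0.18 in GR iKO mice, where *Pdk4* had 2.64 and 3.03. The t-test with the 2-fold minimum and no adjustment called 1467 probes in Flox and 2524 in GR iKO mice.

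Sign changes were found only in values that were not called. For *Pdk3*, the change in Flox mice was −0.044 with normexp, −0.042 with median scaling, and −0.0091 with the mean of all probes, in GR iKO mice 0.011 with normexp, 0.045 with array weights, 0.028 with the block, and 0.023 with quantile normalization within 3 parts of the array rows, and the difference was 0.056 with normexp and 0.030 with weights. For *Pdp1*, the difference was −0.25 with normexp, −0.028 with quantile normalization, −0.031 with the authors' table, −0.068 with median scaling, −0.072 with the block, −0.0028 with outlier spots kept, −0.079 with weights, −0.0095 without rows 355 to 532, and −0.13 without the pancreas arrays. With weights, *Pdp1* was 0.094 under PBS and 0.016 under DEX, and *Pdk1* 0.0086 under PBS. Without the pancreas arrays, *Pdk4* was −0.32 for the difference and −0.077 under DEX. Leaving out 1 array gave −0.015 to 0.11 for *Pdk3* in Flox mice, −0.10 to 0.091 in GR iKO mice, and −0.14 to 0.053 for its difference, −0.21 to 0.017 for *Pdk1* in GR iKO mice and −0.17 to 0.066 under PBS, −0.16 to 0.43 for the *Pdk4* difference and −0.089 to 0.50 under PBS, −0.15 to 0.15 for the *Pdp1* difference, −0.20 to 0.097 under PBS, and −0.14 to 0.071 under DEX, and −0.033 to 0.80 for *Angptl4* under PBS. The cause of these changes was not tested. The difference was not fitted for only the compared groups or the t-test.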
